A study of Arabidopsis thaliana with 18 samples.

Results

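GID1A (locus AT3G05120) encodes a receptor of the plant hormone gibberellin, and its transcript was followed across all 18 ATH1 expression arrays of an Arabidopsis thaliana study of the N-end rule pathway. The gene was chosen with earlier results of these data known, so the p-values below do not test a gene picked blind to them. Its probe set was taken by annotation: 1 probe set is assigned to GID1A alone, out of 13513 probe sets with exactly 1 gene, which stand for 13356 genes. The arrays fell into 8 groups. In imbibed seeds, prt6-1 and the wild type Col-0 had 3 arrays each. In seedlings, prt6-1, ate1 ate2 and Col-0 each had 2 arrays after hypoxia and 2 after air.

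The gene mutated in prt6-1 encodes PRT6, the ubiquitin ligase that recognises proteins with an N-terminal arginine, and ate1 ate2 carries mutations in both arginyl transferase genes, which attach that arginine. Probe sets of PRT6, ATE1 and ATE2 have no gene name in the annotation used, so the mutations were not checked on these arrays. Per the labels' protocols, seeds were kept at low temperature for 48 h and then imbibed for 24 h in constant light at 22 °C, and whole seeds were taken. Whole seedlings were 7 days old, grown at 23 °C on medium with 1% sucrose after 3 days of cold, and were treated at the end of the light period for 2 h with argon (hypoxia) or with air. Seedlings grew with 16 h of light per day at 80 µmol per square metre per second, and both treatments were given in dim light of 6.5. The light for seeds was 150 in the same unit. Each mutant is represented by 1 line. Replicates are described as independent biological experiments.

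Gibberellin binds GID1 receptors, and the loaded receptor then binds DELLA proteins, repressors of growth and germination. An F-box protein, SLY1, marks the bound DELLA proteins for degradation. Arabidopsis has the receptor genes GID1A, GID1B and GID1C, which overlap in function, and gibberellin signalling is known to lower receptor transcripts by feedback. The same study material addresses a different degradation route, in which group VII ERF factors, the activators of hypoxia genes, are removed through ATE and PRT6 when oxygen is present.

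Hypoxia raised GID1A in every genotype. Values are log2 RMA values, on which 1 unit is a doubling. In prt6-1 seedlings GID1A read 9.63 and 9.48 under hypoxia, against 8.75 and 8.60 in air. In ate1 ate2 it read 9.26 and 9.20 under hypoxia, against 8.43 and 8.24 in air. In Col-0 it read 9.18 and 9.31 under hypoxia, against 8.36 and 8.39 in air. All 6 hypoxia arrays lay above all 6 air arrays, and the lowest hypoxia value, 9.18 in Col-0, was higher than the highest air value, 8.75 in prt6-1.

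**Figure D1:**
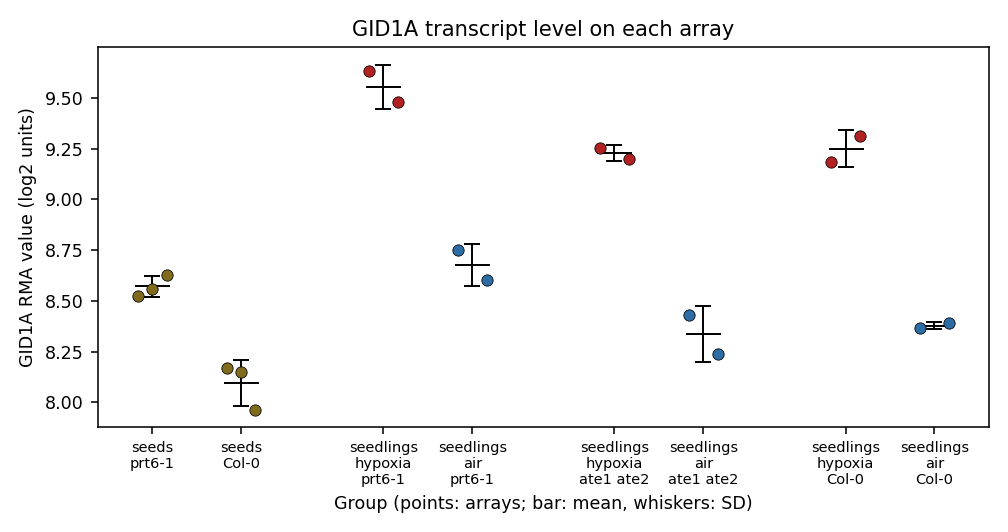
GID1A level on each array (y axis, log2 RMA value) in the 8 groups (x axis); points are arrays, the bar is the group mean and the whiskers are the SD (n = 3 in seeds, n = 2 in seedlings). The hypoxia arrays sit between 9.18 and 9.63, and all other arrays between 7.96 and 8.75.

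The rise was 0.88 log2 units in prt6-1 (SE 0.11, limma adjusted p = 0.000227), 0.89 in ate1 ate2 (SE 0.11, adjusted p = 0.000265) and 0.87 in Col-0 (SE 0.11, adjusted p = 0.000202), which are 1.84-fold, 1.86-fold and 1.83-fold. Over all probe sets, 1.75% were called higher under hypoxia in prt6-1, 1.61% in ate1 ate2 and 1.64% in Col-0 (limma adjusted p under 0.05). GID1A was among the larger responses without being among the extremes. A larger rise was measured for 126 of 22746 probe sets in prt6-1, for 88 in ate1 ate2 and for 176 in Col-0. With air and hypoxia labels exchanged within each genotype, the mean rise of 0.88 had an exact two-sided permutation p of 0.00926, the smallest that the 216 arrangements can give. In these whole-seedling extracts, more cells with the transcript and more transcript per cell cannot be told apart.

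Markers of root hairs moved in the same comparison, and their part in the result was not tested. Of 6 such genes, EXPA7 and EXPA18, both root hair expansin genes, were measured. Here and below, measured means that the annotation assigns a probe set to that gene alone. It names no gene for 8730 probe sets, so other listed genes may be on the array without a name. Both were called lower in prt6-1 and in ate1 ate2, where 2.32% and 1.31% of all probe sets were (limma). Neither was called in Col-0 (-0.24 and -0.61, limma adjusted p = 0.484 and 0.071), where 0.457% of all probe sets were called lower. Their summed linear level was 223 to 237 under hypoxia and 449 to 498 in air in prt6-1. It was 290 to 313 under hypoxia and 580 to 772 in air in ate1 ate2, and 291 to 293 under hypoxia and 382 to 434 in air in Col-0. Of 13 genes of green tissue, the 2 measured, RCA (Rubisco activase) and LHCB4.1 (a light-harvesting protein), summed to 33028 to 34250 under hypoxia and to 32164 to 34776 in air, ranges that overlap.

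The size of the rise did not change detectably with the genotype. The response in prt6-1 minus that in Col-0 was 0.005 (SE 0.15, 95% interval -0.32 to 0.33, limma adjusted p = 0.999). For ate1 ate2 minus Col-0 it was 0.019 (SE 0.15, interval -0.31 to 0.35, adjusted p = 0.99), and for ate1 ate2 minus prt6-1 it was 0.014 (SE 0.15, interval -0.32 to 0.34, adjusted p = 0.994). Differences of up to about 0.35 log2 units in either direction therefore lie within the intervals, and equality is not shown. Over all probe sets these response differences were called for 0.167% (prt6-1 minus Col-0), 0.308% (ate1 ate2 minus Col-0) and 0.0044% (ate1 ate2 minus prt6-1).

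**Figure D2:**
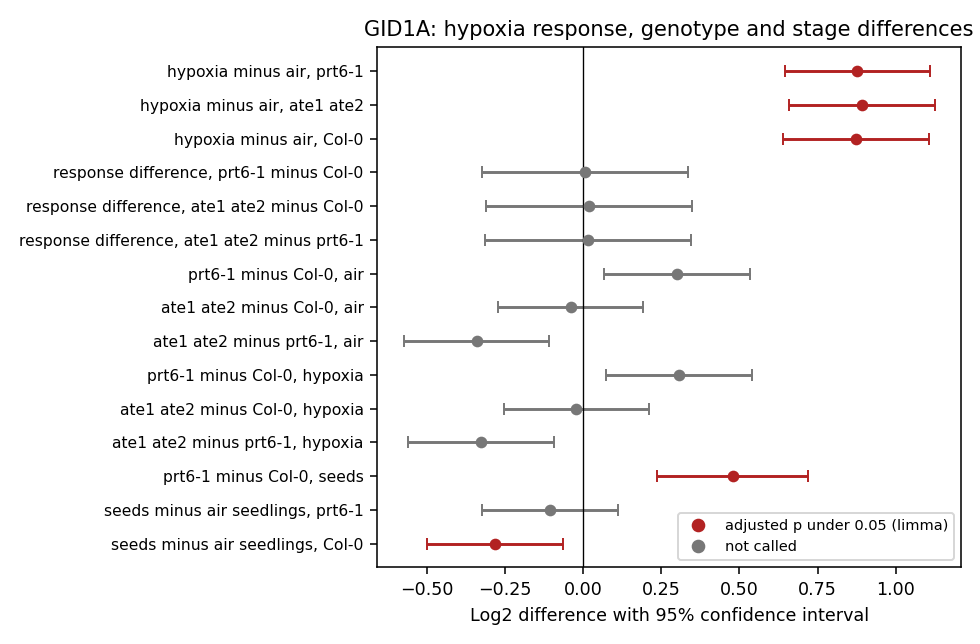
Log2 differences of GID1A (x axis) with 95% confidence intervals for the hypoxia response of each genotype, the differences between those responses, the genotype differences within seedlings and seeds, and the seed to seedling differences (rows); red marks a limma adjusted p under 0.05. The hypoxia responses, 0.88, 0.89 and 0.87, lie clear of 0, while the response differences are centred close to 0.

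Known hypoxia genes gave a different picture on the same arrays. Of 25 such genes listed, 15 were measured. In Col-0 all 15 rose, with a median of 4.12 log2 units against -0.0077 over all probe sets, of which 1.64% were called higher. In prt6-1 14 of them rose (median 1.46, 1.75% of all called higher) and in ate1 ate2 13 rose (median 1.15, 1.61% called higher). Their response was called smaller than in Col-0 for 13 of 15 in prt6-1 and for all 15 in ate1 ate2, where 0.167% and 0.295% of all probe sets were called in that direction (limma). These genes were already high in the mutants in air: 14 of 15 were higher in prt6-1 than in Col-0 (median difference 2.87, 2.18% of all probe sets called higher) and all 15 in ate1 ate2 (median 3.24, 2.09% called higher). Under hypoxia 8 were higher in prt6-1 than in Col-0 (median 0.67, 1.55% called higher). In ate1 ate2 7 were higher and 1 lower than in Col-0 (median 0.49, 1.11% called higher, 2.62% in either direction). The largest rises in Col-0 were those of AT5G10040 (5.88), CML38 (5.15), AT3G10040 (4.98) and AT1G33055 (4.89). The rise of AT1G33055 was 1.46 in prt6-1, 1.15 in ate1 ate2 and 4.89 in Col-0. CML38, a calmodulin-like protein gene, rose by 2.56 in prt6-1, 1.86 in ate1 ate2 and 5.15 in Col-0. This list was assembled with its response in these data known, and its direction is not independent evidence.

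Among the 181 probe sets called higher under hypoxia in all 3 genotypes (0.796% of those tested), GID1A had responses of closely similar size. The largest minus the smallest of them was 0.019 log2 units. The median of this range was 0.40 over the 181, and 3 of them, GID1A included, had a range that small. Of the 72 whose mean response was within 0.2 of that of GID1A, GID1A alone had so small a range, the median being 0.31. With a standard error of 0.11 on each response, a range of 0.019 is finer than these arrays resolve, and the order of the 3 responses is not established. Of the 181, 149 had no response difference called between any pair of genotypes, so lack of a called difference was the usual case.

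**Figure D3:**
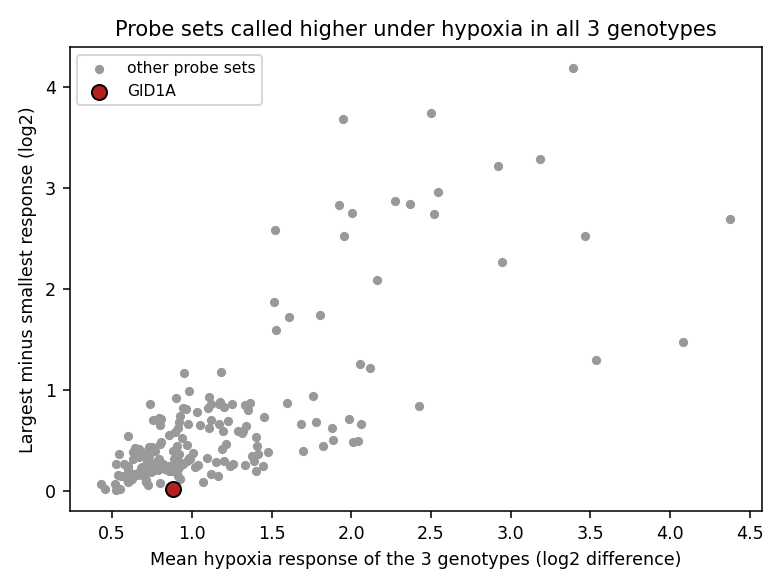
The 181 probe sets called higher under hypoxia in all 3 genotypes, by the mean of the 3 responses (x axis, log2 difference) and the largest minus the smallest of them (y axis, log2). GID1A, in red, has a mean of 0.88 and a range of 0.019.

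The other receptor genes were compared next. GID1B differed under hypoxia by 0.041 in prt6-1 (95% interval -0.25 to 0.33), 0.19 in ate1 ate2 (-0.10 to 0.48) and 0.20 in Col-0 (-0.09 to 0.48), none of them called by limma. GID1C differed by -0.19 in prt6-1 (-0.49 to 0.12), -0.0058 in ate1 ate2 (-0.31 to 0.30) and -0.20 in Col-0 (-0.51 to 0.11), again with none called. GID1B read 7.34 and 7.28 under hypoxia against 7.40 and 7.15 in air in prt6-1, 7.53 and 7.34 against 7.29 and 7.21 in ate1 ate2, and 7.37 and 6.97 against 7.01 and 6.93 in Col-0. The conditions overlapped in prt6-1 and Col-0 and did not in ate1 ate2.

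GID1C read 6.33 and 6.19 under hypoxia against 6.55 and 6.35 in air in prt6-1. In ate1 ate2 it read 6.29 and 6.23 under hypoxia against 6.30 and 6.23 in air. In Col-0 it read 6.50 and 6.19 under hypoxia against 6.76 and 6.33 in air. The conditions overlapped in ate1 ate2 and Col-0, and in prt6-1 both hypoxia arrays lay below both air arrays. The rise of GID1A exceeded the change of GID1B by 0.74 log2 units and that of GID1C by 1.01, averaged over the genotypes. The change of GID1B exceeded that of GID1C by 0.27. Each of these 3 pairs had an exact permutation p of 0.00926 within genotype, the smallest possible, and 0.00926 after Benjamini-Hochberg adjustment over the 3 pairs. With all 3 at that limit, the p-values do not rank the gaps. The pairs share genes and are not independent, and those with GID1A reuse its rise. This comparison of receptor genes was added after the data were seen. These probe sets belong to related genes, and whether each detects its own transcript alone was not tested.

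Of 67 listed genes, called gibberellin pathway genes here, 16 were measured. The list reaches beyond hormone synthesis, transport and signalling. It holds 18 gibberellin response and germination cell wall genes, of which 6 were measured. XTH33, EXPB3 and EXPA8 are among these 6. The 14 biosynthesis genes, the 11 inactivation genes and the DELLA genes were not analysed here. Besides GID1A, 0 of the 15 others rose under hypoxia in any genotype by limma. Over all probe sets 1.75% rose in prt6-1, 1.61% in ate1 ate2 and 1.64% in Col-0, so 0 of 15 is no unusual count. XTH33 fell in prt6-1 and Col-0, where 2.32% and 0.457% of all probe sets fell (1.31% in ate1 ate2). XTH33 codes for a xyloglucan endotransglucosylase, an enzyme that remodels cell walls. It read 6.99 and 7.07 under hypoxia against 7.79 and 7.75 in air in prt6-1, 7.51 and 7.37 against 7.45 and 7.89 in ate1 ate2, and 5.95 and 5.98 against 6.71 and 6.69 in Col-0. Its differences were -0.74 in prt6-1 (SE 0.13, adjusted p = 0.00321), -0.23 in ate1 ate2 (adjusted p = 0.411) and -0.74 in Col-0 (SE 0.13, adjusted p = 0.00411), and its response difference between ate1 ate2 and Col-0, 0.50, was not called (adjusted p = 0.49).

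Of 18 signalling genes 4 were measured, and none was called under hypoxia in any genotype (limma). SLY1, the F-box gene, differed by -0.12 in prt6-1, -0.12 in ate1 ate2 and 0.040 in Col-0. SPY and SEC, which encode sugar transferases that modify DELLA proteins, lay between -0.12 and 0.19. All 3 listed gibberellin transporter genes were measured and none was called. SWEET14, a sugar transporter gene whose product also carries gibberellin, had 0.58 in Col-0 (adjusted p = 0.294), from arrays that read 5.93 and 6.74 under hypoxia against 5.596 and 5.91 in air. The 16 genes had a median hypoxia change of -0.026 in prt6-1, 0.0061 in ate1 ate2 and 0.047 in Col-0, beside -0.015, -0.016 and -0.0077 over all probe sets. The rise of GID1A was the 1 called rise among the 16 pathway genes measured, and the other listed genes were not analysed here.

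**Figure D4:**
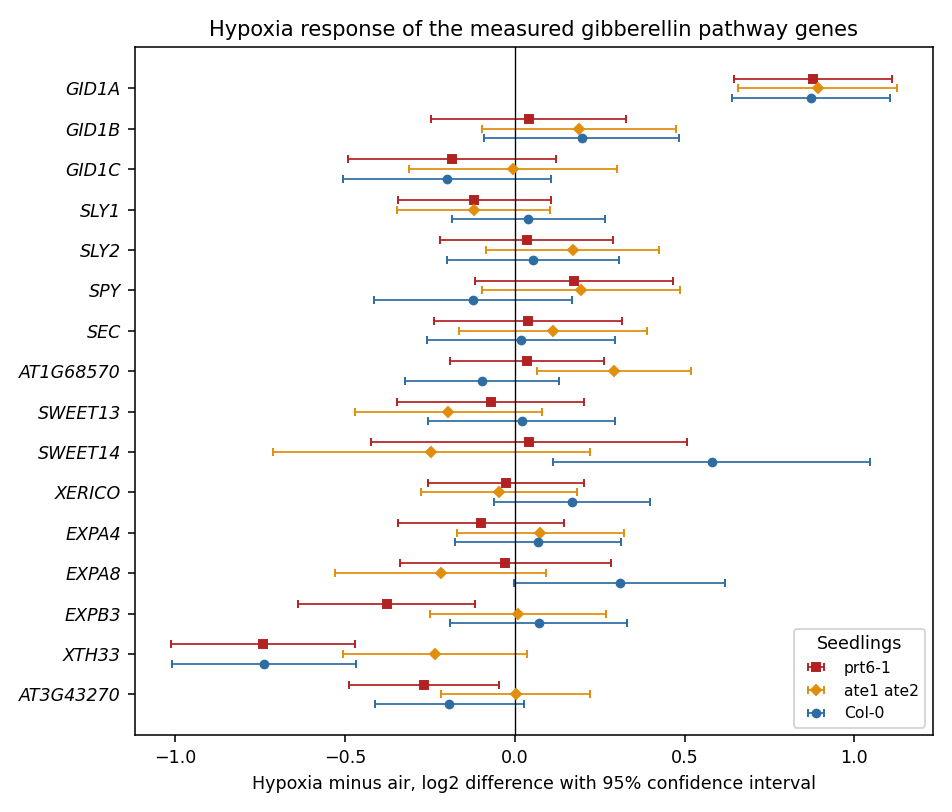
Hypoxia minus air (x axis, log2 difference with 95% confidence interval) for the 16 measured gibberellin pathway genes (rows) in prt6-1, ate1 ate2 and Col-0 seedlings. Of the 16, 6 are response and germination cell wall genes. GID1A is at 0.87 to 0.89 in all 3 genotypes, and XTH33 is the gene called lower, at -0.74 in prt6-1 and in Col-0.

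The next comparisons asked whether the mutations shifted the GID1A level itself. In prt6-1 seedlings GID1A was above Col-0 by 0.30 in air (8.75 and 8.60 against 8.36 and 8.39) and by 0.31 under hypoxia (9.63 and 9.48 against 9.18 and 9.31). The arrays of the genotypes did not overlap in either condition, yet neither difference was called by limma (SE 0.11 each, adjusted p = 0.164 and 0.14), where 4.15% and 5.19% of all probe sets were. In ate1 ate2 the level differed from Col-0 by -0.040 in air (adjusted p = 0.922) and by -0.022 under hypoxia (adjusted p = 0.966), with overlapping arrays in both, where 3.71% and 2.62% of all probe sets were called. Set against prt6-1 directly, ate1 ate2 was at -0.34 in air (adjusted p = 0.393) and -0.33 under hypoxia (adjusted p = 0.355), where 0.127% and 0.163% were called.

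Averaged over air and hypoxia, a contrast chosen after these values were seen, prt6-1 was higher than Col-0 by 0.30 (SE 0.08, 95% interval 0.14 to 0.47, limma adjusted p = 0.0211), where 9.55% of all probe sets were called. The same average for ate1 ate2 minus Col-0 was -0.031 (interval -0.20 to 0.13, adjusted p = 0.893, 7.13% of all called), and for ate1 ate2 minus prt6-1 it was -0.33 (interval -0.50 to -0.17, adjusted p = 0.0691, 0.708% of all called). The prt6-1 call was lost without Col-0 air replicate 1 (0.30), prt6-1 air replicate 1 (0.27), Col-0 hypoxia replicate 1 (0.27) or prt6-1 hypoxia replicate 1 (0.27). The difference between the mutants was called with an intensity trend in the prior (adjusted p = 0.0265).

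Of the 16 pathway genes, 2 were called between prt6-1 and Col-0 seedlings in air, where 4.15% of all probe sets were, and 5 under hypoxia, where 5.19% were (limma). SLY2, a homologue of SLY1, was among the 5 (-0.44, adjusted p = 0.0465), and its call was lost in 13 of 21 alternatives. Under hypoxia SLY2 read 4.63 and 4.80 in prt6-1 against 5.18 and 5.13 in Col-0, below the array medians of 6.70 to 6.88. EXPB3, a beta-expansin gene, read 8.13 and 8.37 under hypoxia in prt6-1, 9.89 and 10.02 in ate1 ate2 and 10.42 and 10.23 in Col-0. It was lower in prt6-1 than in Col-0 by 1.63 in air and 2.08 under hypoxia (differences of -1.63 and -2.08, adjusted p = 1.15e-06 and 1.5e-07), and higher in ate1 ate2 than in prt6-1 by 1.32 and 1.71. XTH33 was higher than in Col-0 in both mutants, by 1.07 in prt6-1 and 0.97 in ate1 ate2 in air, and by 1.07 and 1.47 under hypoxia. SWEET14 was lower than in Col-0 under hypoxia, at -1.20 in prt6-1 (adjusted p = 0.00502) and -1.04 in ate1 ate2 (adjusted p = 0.0175). Both SWEET14 calls were lost without Col-0 hypoxia replicate 2 (-0.79 and -0.63). The first was also lost without prt6-1 hypoxia replicate 1 (-0.91), and the second without ate1 ate2 hypoxia replicate 1 (-1.02) or 2 (-1.06). SWEET13 in prt6-1 under hypoxia (-0.56, adjusted p = 0.0208) lost its call without prt6-1 hypoxia replicate 1 (-0.36) or without Col-0 hypoxia replicate 1 (-0.52) or 2 (-0.60).

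In seeds, GID1A was higher in prt6-1 than in Col-0. It read 8.53, 8.56 and 8.63 in prt6-1 seeds, against 8.17, 8.15 and 7.96 in Col-0 seeds, and the groups did not overlap. The difference was 0.48 log2 units, or 1.39-fold (SE 0.11, 95% interval 0.24 to 0.72, limma adjusted p = 0.0457), and 2.19% of all probe sets were called higher and 1.91% lower. The exact two-sided permutation p was 0.1, the smallest that 3 arrays against 3 allow. The call lies close to the threshold. It was lost without Col-0 replicate 2 (0.51) or 3 (0.41) or without prt6-1 replicate 1 (0.50), 2 (0.48) or 3 (0.45), and with the replicate number as a block (0.48, adjusted p = 0.112). In 1 fit of all 18 arrays the adjusted p was 0.00236.

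Among the seed arrays, Col-0 replicate 1 differed most from the rest in marker genes. It had the highest summed level of the 2 measured of 14 seed reserve and late embryogenesis genes, 970 against 396 to 554 in the other seed arrays, and the lowest of the green tissue genes, 1526 against 2191 to 2393. Its GID1A value, 8.17, lay close to that of replicate 2. Without it the difference between prt6-1 and Col-0 seeds was 0.51 (adjusted p = 0.036).

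The prt6-1 excess had the same sign in seeds, air seedlings and hypoxia seedlings. It was 0.48, 0.30 and 0.31, and in each of them every prt6-1 array exceeded every Col-0 array. The mean of the 3 was 0.36, given as a description. The excess in seeds minus that in air seedlings was 0.18 (95% interval -0.13 to 0.48, limma adjusted p = 0.562), where 5.61% of all probe sets were called, so a difference between the stages was not detectable. The series has no seed arrays of ate1 ate2, so the level in its seeds is unknown.

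GID1B and GID1C were not called between the seed genotypes. GID1B read 5.70, 5.52 and 5.76 in prt6-1 against 5.42, 5.34 and 5.67 in Col-0, a difference of 0.19 (95% interval -0.10 to 0.47). GID1C read 6.16, 6.65 and 5.74 in prt6-1 against 5.36, 5.78 and 5.43 in Col-0, a difference of 0.66 (interval 0.16 to 1.16, adjusted p = 0.148), with overlapping arrays. Among the other 13 measured pathway genes, 2 rose in prt6-1 seeds and none fell, where 2.19% of all probe sets rose and 1.91% fell. EXPA8, an alpha-expansin gene, read 11.99, 11.999 and 12.15 in prt6-1 against 10.94, 11.46 and 11.24 in Col-0 (0.84, SE 0.14, adjusted p = 0.017). SPY read 9.29, 9.21 and 9.12 in prt6-1 against 8.74, 8.69 and 8.69 in Col-0 (0.50, SE 0.10, adjusted p = 0.032). The EXPA8 call was lost without Col-0 replicate 3 (0.85) or any prt6-1 array (0.78 to 0.86), and that of SPY without any seed array other than Col-0 replicate 1 (0.46 to 0.54) and under the replicate block.

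GID1A was lower in Col-0 seeds than in Col-0 air seedlings, and was not called between the stages in prt6-1. In prt6-1, seeds averaged 8.57 ± 0.052 (SD, n = 3) and air seedlings 8.68 ± 0.10 (SD, n = 2), a difference of -0.11 (SE 0.10, limma adjusted p = 0.381). In Col-0, seeds averaged 8.09 ± 0.11 (SD, n = 3) and air seedlings 8.38 ± 0.018 (SD, n = 2), a difference of -0.28 (SE 0.10, adjusted p = 0.0234). Between these stages 37.2% of all probe sets were called higher in seeds and 27.7% lower in prt6-1, and 38% higher and 27% lower in Col-0, so a call here is the common case. The median difference over all probe sets was 0.13 in prt6-1 and 0.14 in Col-0. The Col-0 call was lost after median centring (-0.23), with only the arrays compared (-0.28), without Col-0 seed replicate 3 (-0.22) and without Col-0 air replicate 1 (-0.30) or 2 (-0.27). Growth conditions differed between seeds and seedlings and cannot be told apart from the stage. Tissue markers moved with the stage, and their part in the GID1A values was not tested. The 2 measured of 13 green tissue genes summed to 2231 to 2393 on the linear scale in prt6-1 seeds and 32164 to 33367 in prt6-1 air seedlings. The 2 measured of 6 root hair genes summed to 55.4 to 79 in prt6-1 seeds and 449 to 498 in prt6-1 air seedlings, and the 2 measured of 14 seed genes to 434 to 554 in the seeds and 38.8 to 43.3 in the air seedlings. In Col-0 the green genes summed to 1525.5 to 2237 in seeds and 33772 to 34466 in air seedlings, the root hair genes to 50.4 to 69.8 in seeds and 382 to 434 in air seedlings, and the seed genes to 396 to 970 in seeds and 79.9 to 90 in air seedlings. The green genes had median differences of -3.80 in prt6-1 and -4.11 in Col-0, and the root hair genes of -2.86 and -2.66. The seed genes, OLEO3 and AT2G25890, had 3.59 in prt6-1 and 2.68 in Col-0, and all 6 genes were called in both genotypes (limma).

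Among the other receptor genes, GID1B was lower in seeds than in air seedlings in both genotypes, with differences of -1.61 log2 units in prt6-1 and -1.496 in Col-0 (limma adjusted p = 1.05e-08 and 2.84e-08). Its seed arrays read 5.34 to 5.76 and its air seedling arrays of these genotypes 6.93 to 7.40. GID1C was at -0.26 in prt6-1 (adjusted p = 0.267) and -1.02 in Col-0 (adjusted p = 0.000285). Of the 16 pathway genes, 3 were higher and 6 lower in prt6-1 seeds, where 37.2% of all probe sets were called higher and 27.7% lower. In Col-0 seeds 3 were higher and 11 lower, where 38% of all probe sets were called higher and 27% lower. EXPA8 was higher in seeds by 3.48 in prt6-1 and 2.63 in Col-0, and EXPB3 lower, at -2.71 and -4.35.

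Ordered by mean, GID1A was lowest in Col-0 seeds (8.09), followed by ate1 ate2 in air (8.34), Col-0 in air (8.38), prt6-1 seeds (8.57), prt6-1 in air (8.68), ate1 ate2 under hypoxia (9.23), Col-0 under hypoxia (9.25) and prt6-1 under hypoxia (9.56). Neighbours whose arrays overlapped were ate1 ate2 and Col-0 in air, prt6-1 seeds and prt6-1 in air, and ate1 ate2 and Col-0 under hypoxia. The widest gap, 0.55, separated the hypoxia groups from the rest.

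The genes with profiles most like GID1A were found by Pearson correlation over the 12 seedling arrays among the other 13512 single-gene probe sets, as a description, since all arrays share the hypoxia contrast. AT5G19120 came first with r = 0.991, followed by AT5G22700 (0.971), AT1G03610 (0.967), AT5G05250 (0.966), AT1G72920 (0.956) and AT1G16860 (0.955). PYE, which encodes a bHLH factor of the iron deficiency response, had r = 0.952, AT4G31020 0.944, AT1G25550 0.943 and AT4G28703 0.939. In all, 54 probe sets exceeded 0.9. Their hypoxia responses varied in size: AT5G19120 rose by 1.38 in prt6-1, 1.19 in ate1 ate2 and 1.44 in Col-0, and AT5G05250 by 0.69, 0.72 and 0.75. Of the 10, 9 were called higher under hypoxia in all 3 genotypes, and AT1G25550 in 2 of them. Over all probe sets 0.796% were called higher in all 3. The 10 were picked by likeness to GID1A over these same arrays, so such calls follow largely from the selection.

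The most opposite profiles were those of AT1G78260 (r = -0.953), AT1G12500 (-0.951), AT3G07090 (-0.95), AT4G25250 (-0.949) and AT5G55620 (-0.942). AT4G25250 fell under hypoxia by 1.40 in prt6-1, 1.25 in ate1 ate2 and 1.29 in Col-0. Over the means of the 8 groups, seeds included, AT1G16860 was closest (r = 0.973), followed by AT1G03610 (0.965), AT3G12150 (0.963), AT3G26700 (0.961) and AT5G11090 (0.953), so that AT1G16860 and AT1G03610 appeared in both lists.

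**Figure D5:**
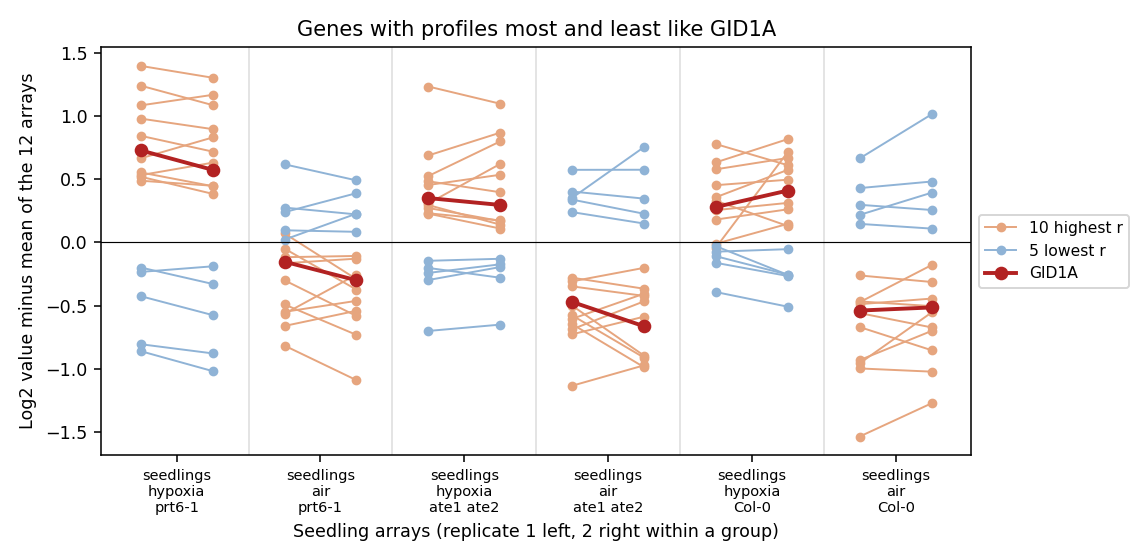
Log2 value minus the mean of the 12 seedling arrays (y axis) for GID1A (red), the 10 genes with the highest correlation (orange) and the 5 with the lowest (blue), by group (x axis), with a line joining the 2 arrays of a group. GID1A is highest in prt6-1 under hypoxia, at 9.63 and 9.48 before centring, and the blue genes run the opposite way.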

How the data were processed

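RNA of whole seeds (6 arrays) and whole seedlings (12 arrays) was hybridised to ATH1 arrays. Values are log2 expression as deposited, which the authors obtained with RMA according to the submitters' processing notes, where affy is also named. Since RMA equalises the distributions of arrays after background correction, it takes out shifts common to most genes. The sources used here do not say if both stages went through RMA together. Array medians lay between 6.70 and 6.88, and arrays of 1 group correlated at r = 0.986 to 0.997. Any 2 arrays differed in 99.97% or more of their values. Signal over background is unknown, and the number of arrays limits the precision.

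The tests covered 22746 of 22810 probe sets, without the 64 controls. GEO's annotation of the array, with symbols from the RefSeq table of TAIR10.1, names 1 gene for 13513, several for 503 and none for 8730. The array names no genome build, so no coordinates are given.

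Using limma 3.58.1 (R 4.3.3), 1 model held the 6 seedling groups, another the 2 seed groups, and a model of all 18 arrays served for seeds against seedlings. Two-sided p-values were adjusted by Benjamini-Hochberg across the 22746 probe sets, with 0.05 as the threshold for a call. Genes with several probe sets were represented by the brightest. Exact permutation tests of single values used exchanges within genotype or stage. Genes were named as members of the gibberellin lists, as the 10 highest and 5 lowest correlations with GID1A (5 over group means), and as the hypoxia genes with the largest rise in Col-0 (up to 4). GID1A and the lists were chosen with earlier results of these data known.

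On simulated data, 89.6% of 67 changes of 0.875 were called in hypoxia against air in Col-0 over 22746 probe sets, and 28.4% of 67 changes of 0.5. In prt6-1 against Col-0 seeds, 19.4% of 67 changes of 0.5 were called. Of all calls in these simulations, 6.5% (Col-0 hypoxia) and 5.7% (seeds) fell on unchanged probe sets. The noise was normal and independent between probe sets, and 200 probe sets were changed. That is fewer than were called in the data in either comparison, so these shares may not carry over. Of 4 endosperm and seed coat genes, 1, BAN, was measured, with a linear level of 24.1 to 32.7 in seeds and 22.0 to 31.6 in seedlings. Its log2 values, 4.46 to 5.03, lie below the array medians of 6.70 to 6.88 in both stages. BAN therefore gives no measure of how much of these tissues the samples held. Alternatives covered normalization, filters, the prior, array weights, the samples fitted, a replicate block and leaving out each array. The contrasts averaged over air and hypoxia and the comparison of receptor genes were added after the data were seen.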

Additional observations from a re-analysis of the deposited data

Results flagged for a closer look

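GID1A itself was not among the pathway genes whose prt6-1 difference was called as unequal between seeds and air seedlings (0.18, limma adjusted p = 0.562). Of the other measured pathway genes, 4 were (limma over all 18 arrays), where 5.61% of all probe sets were called. In each the prt6-1 minus Col-0 difference was more positive in seeds than in air seedlings, which does not require a higher level in prt6-1 seeds. EXPB3 had a difference of 1.64 (SE 0.18, adjusted p = 4.86e-05), EXPA8 of 0.85 (SE 0.22, adjusted p = 0.0284), SWEET13 of 0.70 (SE 0.17, adjusted p = 0.0223) and SPY of 0.62 (SE 0.17, adjusted p = 0.0436). In air seedlings the EXPB3 difference between prt6-1 and Col-0 was -1.63, and its seed arrays read 6.17, 5.82 and 5.75 in prt6-1 against 5.84, 5.999 and 5.87 in Col-0. SWEET13 averaged 5.07 in prt6-1 seeds against 4.83 in Col-0 seeds, and 5.10 against 5.57 in air seedlings. These SWEET13 means and all of the EXPB3 seed values lie below the array medians of 6.70 to 6.88. The call of EXPB3 held in all 27 alternatives run, whereas that of SPY was lost in 15, that of EXPA8 in 4, and that of SWEET13 in 3 of 26.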

How the results depend on the processing

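The hypoxia rise of GID1A kept its direction and its call in every alternative run, with values of 0.80 to 0.95 in prt6-1, 0.80 to 0.99 in ate1 ate2 and 0.81 to 0.94 in Col-0 and adjusted p-values up to 0.00774. The call in seeds did not: it was lost after quantile renormalization (0.46, adjusted p = 0.0519), with single-gene probe sets only (0.48, adjusted p = 0.0524) and with the replicate number as a block (0.48, adjusted p = 0.112), and single left-out arrays gave 0.41 to 0.51. The replicate block changed no other GID1A call. The numbers were not taken to pair the samples: deviations of same-numbered replicates correlated over 0.1 in 7 of 15 pairs of seedling groups (-0.23 to 0.26) and in 0 of 3 pairs in seeds. The Col-0 seed to seedling difference lost its call after median centring (-0.23) and with only the compared arrays (-0.28), and ranged from -0.32 to -0.22 with single arrays left out. The prt6-1 excess averaged over conditions ranged from 0.27 to 0.34 with single arrays left out, and the ate1 ate2 minus prt6-1 average, -0.33, was called with an intensity trend.

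GID1A differences near 0 changed sign, with no call on either side. The ate1 ate2 minus prt6-1 response difference was -0.0296 after quantile renormalization and -0.0429 after median centring. With single arrays left out, response differences ranged from -0.0718 to 0.0818 (prt6-1 minus Col-0), -0.0777 to 0.115 (ate1 ate2 minus Col-0) and -0.0827 to 0.11 (ate1 ate2 minus prt6-1), and ate1 ate2 minus Col-0 from -0.137 to 0.0558 in air, -0.0869 to 0.0433 under hypoxia and -0.0793 to 0.0170 averaged. Counts of calls over all probe sets moved more: 927 in prt6-1 under hypoxia were 406 to 1115, 665 in ate1 ate2 were 192 to 792, 478 in Col-0 were 214 to 557, and 934 in seeds were 300 to 3006. Response differences had 38 calls (18 to 58) for prt6-1 minus Col-0, 70 (35 to 133, the highest without ate1 ate2 air replicate 1) for ate1 ate2 minus Col-0 and 1 (0 to 9) for ate1 ate2 minus prt6-1. Between prt6-1 and Col-0 there were 943 in air (402 without prt6-1 air replicate 2, to 1156), 1180 under hypoxia (392 without Col-0 hypoxia replicate 2, to 1412) and 2173 averaged (1038 to 2429). Between ate1 ate2 and Col-0 there were 843 in air (362 without Col-0 air replicate 1, to 1055), 596 under hypoxia (229 without ate1 ate2 hypoxia replicate 2, to 995) and 1622 averaged (775 to 1826). Between the mutants there were 29 in air (12, to 92 without ate1 ate2 air replicate 2), 37 under hypoxia (6 to 120) and 161 averaged (51 to 278). Seeds against air seedlings had 14769 in prt6-1 (8238 to 15428) and 14784 in Col-0 (8288 to 15320), and the prt6-1 effect between stages had 1276 (545 without prt6-1 air replicate 2, to 2039 without Col-0 seed replicate 1). Several of the lowest counts come from single-gene probe sets only, where fewer were tested. Depth cannot be judged without signal over background.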
